A study of Gallus gallus with 2 samples.

Results

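The axon guidance receptors and ligands of the ROBO, SLIT and netrin pathways were followed through the cell classes of the chick embryonic cerebellum from embryonic day 6 (E6) to day 9 (E9). The genes were chosen by name: ROBO1, ROBO2, ROBO3, SLIT1, SLIT2, SLIT3, DCC, UNC5C, DRAXIN and NTN1. Of these 10 names, 9 were matched in the deposited gene list of 30108 genes, and DCC was not analysed here. All 9 genes had unique molecular identifiers (UMIs, each standing for 1 captured transcript molecule) in the table, between 614 for NTN1 and 250615 for UNC5C, so none was removed by a filter on low values.

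ROBO proteins are cell surface receptors on growing axons and migrating neurons, and SLIT proteins are the secreted ligands that repel cells carrying ROBO1 or ROBO2. In mammals ROBO3 differs from its relatives in that it binds SLIT poorly and is needed for commissural axons to cross the midline. Netrin, encoded by NTN1, is a secreted cue that attracts or repels depending on the receptor, UNC5C is a receptor for repulsion, and DRAXIN is a secreted protein, first found in the chick, that repels axons and binds netrin. In the mouse, loss of Unc5c lets granule and Purkinje cells stray beyond the front border of the cerebellum.

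In the RefSeq table for the chicken assembly GRCg7b, which is the build named in the submitters' processing notes, all 9 are protein-coding genes. ROBO1 (chromosome 1, 96051998 to 96759720) and ROBO2 (chromosome 1, 97041297 to 97503230) lie beside each other on the same chromosome, and ROBO3 lies on chromosome 24, 304911 to 314482. The SLIT genes are on chromosome 6, 23177817 to 23209081 (SLIT1), chromosome 4, 74511140 to 74756644 (SLIT2) and chromosome 13, 3792458 to 4318754 (SLIT3). UNC5C is on chromosome 4, 58111934 to 58357124, DRAXIN on chromosome 21, 5638646 to 5654973 and NTN1 on chromosome 18, 2671933 to 2721923. The spans of SLIT2 and SLIT3 hold the microRNA genes MIR218-1 and MIR218-2, and the annotated spans of ROBO3 and ROBO4 and of DRAXIN and MAD2L2 overlap. The counting of overlapping spans is not given in the sources used here, so the ROBO3 and DRAXIN values could include reads of those neighbours.

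The cells were wild-type chick cerebellum, dissected and pooled at E6, E7, E8 and E9, and read with a combinatorial barcoding kit (Evercode WT Mini) as 2 sublibraries dividing 1 set of barcoded cells. The 15189 cells kept divide into 2488 of E6, 7648 of E7, 2478 of E8 and 2575 of E9, each stage barcoded in 3 wells, and into 9247089, 71622972, 10049537 and 10335192 UMIs in the same order. Median depth was 3025.5, 6047, 3310 and 3172 UMIs per cell in that order, so E7 cells were read most deeply. There is 1 pool of tissue per stage, and therefore no replicate animals and no test: each level is the sum of UMIs over cells as CPM (UMIs of the gene scaled to a common total for all genes), with an exact 95% Poisson interval for counting error only and the standard deviation (SD) over the 2 sublibraries. A gene is called higher or lower when its level differs by at least 2-fold and has 100 or more UMIs over the cells compared, and the share of all such genes past that size is given as background. CPM is not divided by transcript length, so levels are compared between cells and not between genes.

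Cells were placed in 13 classes by UMIs of marker genes. Purkinje-like cells (2556) were gated on SKOR2 with ESRRB, LHX1 and LHX5, radial-progenitor-like cells (2476) on SLC1A3, FABP7, HES5, SOX2 and SOX9, granule-lineage-like cells (518) on PAX6, BARHL1 and NEUROD1, and newborn-neuron-like cells (396) on NHLH1, NHLH2, NEUROD4 and INSM1. PAX2-high cells (442), LHX2/LHX9-positive cells (262), SOX14-positive cells (75) and late-glutamatergic-like cells (244; TBR1, EOMES or LMX1A with SLC17A6) were the other neuronal classes. The remaining classes were mural-like (339), endothelium-like (104), roof-plate-like (81), microglia-like (71) and erythroid-like (54) cells. A further 6514 cells passed no gate and 1057 passed several and were left out of the classes. The list of Purkinje markers summed to 4185 CPM in Purkinje-like cells and at most 2516 in any other class. It includes the gate genes SKOR2, ESRRB, LHX1 and LHX5, so this difference is partly set by the gate and is no separate check. The granule marker list, which likewise includes PAX6, BARHL1 and NEUROD1, was higher in newborn-neuron-like cells (1836 CPM) than in granule-lineage-like cells (1262 CPM). Markers of the hindbrain behind the cerebellum summed to at most 0.0607 CPM in any class, and markers of the midbrain and isthmus in front of it to between 22.3 CPM in endothelium-like and 689 CPM in radial-progenitor-like cells; their part in the values was not tested.

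RNA of these genes was also read in blood cells. Erythroid-like cells, with a median of 1138 UMIs, held 1384 CPM of ROBO1, 1746 of ROBO2 and 2038 of UNC5C, near the 1519.8, 1803 and 2475 CPM of all cells. Endothelium-like cells, with a median of 14910 UMIs, held 123, 117 and 128 CPM of the same genes. After each cell was thinned to 1000 UMIs, 46.9% of 32 erythroid-like cells had a ROBO2 UMI (exact binomial interval 29.1 to 65.3%; 40.7% of 54 before thinning) and 8.65% of 104 endothelium-like cells (4.03 to 15.8%; 58.7% before). Over all cells the thinned ROBO2 share was 50.6%, within the interval of the erythroid-like cells. Some classes lay above the blood cells: thinned alike, 93.5% of 261 LHX2/LHX9-positive cells had a ROBO1 UMI, against 46.9% of the erythroid-like cells, and 92.5% of granule-lineage-like cells had a UNC5C UMI, against 56.3%. Classes are compared by levels below; the part of free RNA in those levels was not tested. No erythroid-like cell had a ROBO3 UMI, but 19 of them come from E8 and 17 from E9, where all cells held 3.18 and 2.23 CPM of ROBO3. At E7, with 13 erythroid-like cells, the exact Poisson interval of that 0 ends at 23.4 CPM, against 86.2 CPM in all cells of E7.

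**Figure D1:**
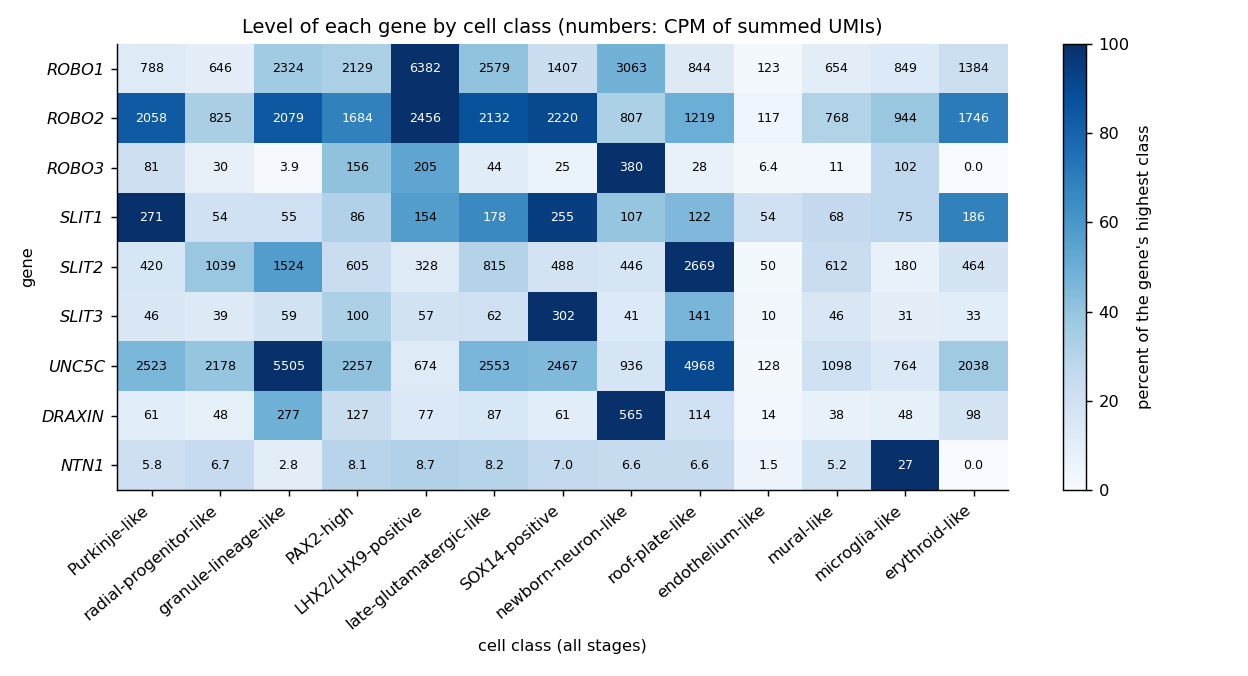
Levels of the 9 genes (rows) in the 13 cell classes (columns), all stages summed; the numbers are CPM and the shade is the percent of each gene's highest class. ROBO1 peaks in LHX2/LHX9-positive cells (6382 CPM), SLIT2 in roof-plate-like cells (2669 CPM) and UNC5C in granule-lineage-like cells (5505 CPM).

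With all stages together, ROBO1 and ROBO2 peaked in LHX2/LHX9-positive cells, ROBO3 and DRAXIN in newborn-neuron-like and UNC5C in granule-lineage-like cells. SLIT1 peaked in Purkinje-like, SLIT2 in roof-plate-like and SLIT3 in SOX14-positive cells. Over all 9 genes and 13 classes, 14 of 117 gene and class pairs were higher than in the other cells and 35 were lower; of all genes in the same 13 classes, 8.29% of pairs were higher and 11.2% lower. ROBO1 was highest in LHX2/LHX9-positive cells, whose markers are known from early glutamatergic neurons of the cerebellar nuclei, at 6382 ± 903 CPM (SD over 2 sublibraries), against 1447 CPM in the other cells (log2 ratio 2.14, interval 2.11 to 2.17; 4.03% of all genes were called higher in this class). Newborn-neuron-like cells followed at 3063 ± 292 CPM, against 1487 in the other cells (log2 ratio 1.04 ± 0.12; 3.25% called higher). The ratio was 1.30 at E7 alone and 0.68, under 2-fold, at E6 alone, and it was also under 2-fold in sublibrary 1 alone, with a gate 1 UMI stricter, without E7 and among cells under 10000 UMIs (0.93 to 0.96). The next classes were late-glutamatergic-like (2579 CPM), granule-lineage-like (2324) and PAX2-high cells (2129), each step in this order lying beyond counting error. ROBO1 was lower in Purkinje-like cells, at 788 ± 35.9 CPM against 1731 in the other cells (log2 ratio -1.14 ± 0.10, 16.2% called lower), but this depended on stage and scaling. Of the stages taken alone, only E6 gave the call. The ratio was under 2-fold at E7 alone, at E8 alone, without E7 and against cells of the other named classes only. It was also under 2-fold once the median log2 ratio of all genes, -0.15, was subtracted. At E9 ROBO1 stood at 2328 CPM in Purkinje-like cells, against 1879 in the other cells of that stage. It was also lower in radial-progenitor-like cells, at 646 ± 52.6 CPM against 1689.8 in the other cells (log2 ratio -1.39 ± 0.11; 12.5% called lower).

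Summed over all stages, ROBO2, a close relative of ROBO1 and like it a SLIT receptor, covered a narrower range over the neuronal classes. Its level was 2456 ± 41.6 CPM in LHX2/LHX9-positive cells, 2219.9 ± 377 in SOX14-positive cells, 2132 ± 114 in late-glutamatergic-like cells, 2079 ± 173 in granule-lineage-like cells and 2058 ± 20.6 in Purkinje-like cells. From SOX14-positive down to Purkinje-like cells, no neighbours in this order differed beyond counting error. With all stages together, no class was higher in ROBO2 by 2-fold over the other cells. At E6 alone LHX2/LHX9-positive cells were called higher in it and Purkinje-like cells lower. At E7 alone neither class was called. Over all stages ROBO2 was lower in radial-progenitor-like cells, at 825 ± 44.97 CPM against 1993 (log2 ratio -1.27 ± 0.06). It was also lower in newborn-neuron-like cells, at 807 ± 57.1 CPM against 1824 (log2 ratio -1.18 ± 0.09, with 13.6% of genes called lower). Newborn-neuron-like cells thus had ROBO1 above and ROBO2 below the other cells.

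ROBO3, needed in mammals for commissural axons to cross the midline, was highest in newborn-neuron-like cells, at 380.1 ± 18.2 CPM against 75.02 in the other cells (log2 ratio 2.34 ± 0.05, interval 2.23 to 2.45). LHX2/LHX9-positive cells came next at 205 ± 0.225 CPM, against 79.6 in the other cells (log2 ratio 1.36 ± 0.12), and under 2-fold at either stage alone. PAX2-high cells held 156 ± 47.1 CPM, microglia-like cells 102 CPM (interval 68.7 to 145) and Purkinje-like cells 81.3 ± 14.3 CPM. The microglia-like and Purkinje-like levels did not differ beyond counting error. SOX14-positive cells were lower, at 24.6 ± 1.99 CPM against 81.9 (log2 ratio -1.74 ± 0.23; 6.36% called lower), though not as clusters, and so were roof-plate-like cells, at 27.7 ± 9.95 CPM against 81.9 (log2 ratio -1.57 ± 0.67; 4.9% called lower). With all stages together, newborn-neuron-like and LHX2/LHX9-positive cells thus had the highest ROBO3 levels. Of the LHX2/LHX9-positive cells, 161 of 262 come from E6, where all cells held 218 CPM of ROBO3. At E7 alone the log2 ratio of that class was -0.24. In granule-lineage-like cells 11 UMIs were read, which is 3.91 CPM (interval 1.95 to 6.99) against 83.6 in the other cells (log2 ratio -4.42 ± 0.74; 11.5% called lower). Of the granule-lineage-like cells, 245 of 518 come from E9 and 5 from E6, and over all cells ROBO3 had 32 UMIs at E8 and 23 at E9; at E7 alone the level was 7.87 CPM in granule-lineage-like cells, against 87.6 in the other cells. After thinning to 1000 UMIs, 21.5% of newborn-neuron-like cells had a ROBO3 UMI at E7 (interval 17.05 to 26.5%; 45.2% unthinned) and 38.98% at E6 (26.5 to 52.6%; 52.5%), against 1.92% of endothelium-like cells (0.234 to 6.77%; 9.62%). The endothelium-like cells are not matched for stage, 42 of the 104 being from E8 and 32 from E9; at E7 they held 8.96 CPM of ROBO3 on 9 UMIs. Median depths were 4826 UMIs at E7, 3695 at E6 and 14910 in endothelium-like cells.

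With all stages together, UNC5C, the netrin receptor for repulsion, was highest in granule-lineage-like cells, the class whose progenitors form the outer layer of the cerebellum. It stood at 5505 ± 255 CPM there, against 2388 in the other cells (log2 ratio 1.205 ± 0.10, interval 1.18 to 1.23, with 5.81% of genes called higher). At E7 alone the granule-lineage-like ratio was 0.93, under 2-fold, while roof-plate-like cells were called higher in UNC5C. Roof-plate-like cells held 4968 ± 197 CPM, against 2453 in the other cells (log2 ratio 1.02 ± 0.03; 9.21% called higher), a log2 ratio that was 0.97 when ribosomal, mitochondrial and the 50 most abundant genes were left out of the scaling and 0.80 over cells with fewer than 10000 UMIs, both under 2-fold. Late-glutamatergic-like, Purkinje-like and SOX14-positive cells, at 2553, 2523 and 2467 CPM, came next, and neighbours among these 3 did not differ beyond counting error. The lowest neuronal levels were 936 ± 225 CPM in newborn-neuron-like cells, against 2508 in the other cells (log2 ratio -1.42 ± 0.33), and 674 ± 326 CPM in LHX2/LHX9-positive cells, against 2502 (log2 ratio -1.89 ± 0.71; 9.67% called lower). These are the classes in which ROBO1 was highest.

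Among the ligands, SLIT1 was highest in Purkinje-like cells, at 271 ± 18.9 CPM, against 122 in the other cells (log2 ratio 1.15 ± 0.10, interval 1.104 to 1.196). It was the only one of the 9 genes called higher in Purkinje-like cells, where 1.6% of all genes were; at E7 alone and in the clusters described below the difference was just under 2-fold (lowest 0.82). SOX14-positive cells held 255 ± 4.55 CPM, which did not differ from the Purkinje-like level beyond counting error. SLIT1 was lower in radial-progenitor-like cells, at 54.1 ± 1.67 CPM against 175 (log2 ratio -1.69 ± 0.07), and in granule-lineage-like cells, at 55.4 ± 23.8 CPM against 158 (log2 ratio -1.51 ± 0.63). At E7 alone the granule-lineage-like ratio of SLIT1 was -0.82, under 2-fold. Radial and granule cells, which had the lowest SLIT1 of the neural classes, were among the highest in SLIT2. The highest SLIT2 levels were 2669 ± 868 CPM in roof-plate-like, 1524 ± 255 in granule-lineage-like and 1039 ± 86.2 in radial-progenitor-like cells, against 719, 714 and 677 CPM in the cells outside each class. The log2 ratios were 1.89 ± 0.55, 1.09 ± 0.27 and 0.62 ± 0.12, the last of them under 2-fold, and the granule-lineage-like one 0.91 in sublibrary 2 alone. The granule-lineage-like ratio was also under 2-fold at E8 alone, at E9 alone and without E7. Purkinje-like cells held 419.8 ± 28.1 CPM of SLIT2, against 828 (log2 ratio -0.98 ± 0.09), and LHX2/LHX9-positive cells 328 ± 1.54 CPM, against 742 (log2 ratio -1.18 ± 0.02). By single stage, SLIT2 was called lower in Purkinje-like cells at E6, E8 and E9 but not at E7. It was called higher in radial-progenitor-like cells at E6 alone. The LHX2/LHX9-positive ratio was under 2-fold at E7 alone and with a gate 1 UMI stricter. Across 25 class and stage groups, the log2 levels of SLIT1 and SLIT2 had a Pearson correlation of -0.42, a description of groups that share libraries and cells of the same pools. Other pairs were stronger, at -0.57 for ROBO3 and UNC5C and 0.56 for ROBO3 and SLIT1. ROBO1 and UNC5C stood at -0.32. SLIT3 was highest in SOX14-positive cells, at 302 ± 120.3 CPM against 57.8 (log2 ratio 2.38 ± 0.52, interval 2.198 to 2.56; 5.23% called higher), and next in roof-plate-like cells, at 141 ± 3.504 CPM against 59.2 (log2 ratio 1.25 ± 0.11). Its class values rest on few UMIs: 258 in SOX14-positive cells, of which 53 of 75 come from E7.

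DRAXIN was concentrated in newborn-neuron-like cells, at 565 ± 36.97 CPM against 90.3 in the other cells (log2 ratio 2.64 ± 0.11, interval 2.56 to 2.73). Granule-lineage-like cells followed at 277 ± 45.5 CPM, against 95.2 (log2 ratio 1.54 ± 0.24). Purkinje-like cells held 60.8 ± 3.33 CPM and radial-progenitor-like cells 47.8 ± 0.206 CPM, against 112 and 110.4 in the cells outside each class, with log2 ratios of -0.88 and -1.21. Within each stage the Purkinje-like cells lay further below: 15.04 CPM at E6 against 37.4 in the other cells, 66.5 at E7 against 137, 17.2 at E8 against 55.9, and 18.97 at E9 against 88.5. In the clusters described below, those named Purkinje-like and mostly from E7 (4, 10, 17 and 25) held 22.2, 13.9, 8.08 and 24.9 CPM of DRAXIN. The unnamed clusters 8 and 0, which hold part of the E7 Purkinje-like cells, had 135 and 110 CPM. NTN1, the netrin ligand, was sparse: 614 UMIs in all, or 6.06 ± 0.7498 CPM. The microglia-like class was the one called higher in NTN1, and that value rests on 8 UMIs (27.2 CPM, interval 11.7 to 53.5, against 6.002 in the other cells; log2 ratio 2.18 ± 0.52; 14.5% called higher). The microglia-like ratio was under 2-fold in the clusters described below and without E7. Cluster 38, named microglia-like, held 9.30 CPM on 4 UMIs (interval 2.53 to 23.8). From LHX2/LHX9-positive (8.67 CPM) down to mural-like cells (5.18 CPM), no neighbours in the order of NTN1 levels differed beyond counting error. Granule-lineage-like cells were lower, with 8 UMIs (2.84 CPM, against 6.16; log2 ratio -1.11 ± 1.06), but -0.06 in sublibrary 2 alone.

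In the vessel classes most of the genes were lower than in the other cells. Endothelium-like cells were lower in all 9 genes, where 26.4% of all genes were called lower, with 123 CPM of ROBO1, 50.001 of SLIT2 and 128 of UNC5C, against 1557, 754 and 2538 in the other cells; for NTN1, with 4 UMIs, this did not hold among cells under 10000 UMIs. Mural-like cells were lower in 6 of the 9 genes (15.8% called lower), SLIT2, SLIT3 and NTN1 being the exceptions, and held 612 ± 103 CPM of SLIT2, against 738 in the other cells. In 1 sublibrary alone the mural-like ratio was under 2-fold for ROBO1 (-0.99), ROBO2 (-0.85), UNC5C (-0.97) and SLIT1 (-0.90). By single stage it was under 2-fold for SLIT1 at E7, E8 and E9, for ROBO1 and UNC5C at E7, and for ROBO3 at E8 and E9. Of the exceptions, SLIT2 was called lower in mural-like cells at E8 alone and SLIT3 at E9 alone. Microglia-like cells were lower in 4 genes (6.98% called lower): SLIT1, SLIT2, UNC5C and DRAXIN, of which SLIT1 (-0.11) and DRAXIN (-0.29) were under 2-fold in sublibrary 1 alone. In erythroid-like cells ROBO3 was lower (3.39% called lower). None of the 9 was higher in endothelium-like, mural-like or erythroid-like cells, where 19.7%, 15.3% and 11.9% of genes were. None was called in PAX2-high or late-glutamatergic-like cells over all stages, where 3.35% and 3.46% of genes were called higher and 11.1% and 7.88% lower. Single stages did give calls in both classes. In PAX2-high cells SLIT2 was higher at E6 but lower at E8 and E9, and SLIT1 was lower at E6 and E8. In the same class UNC5C was lower at E6, ROBO3 higher at E7, and SLIT3 and DRAXIN higher at E9. In late-glutamatergic-like cells ROBO3 was lower at E7.

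**Figure D2:**
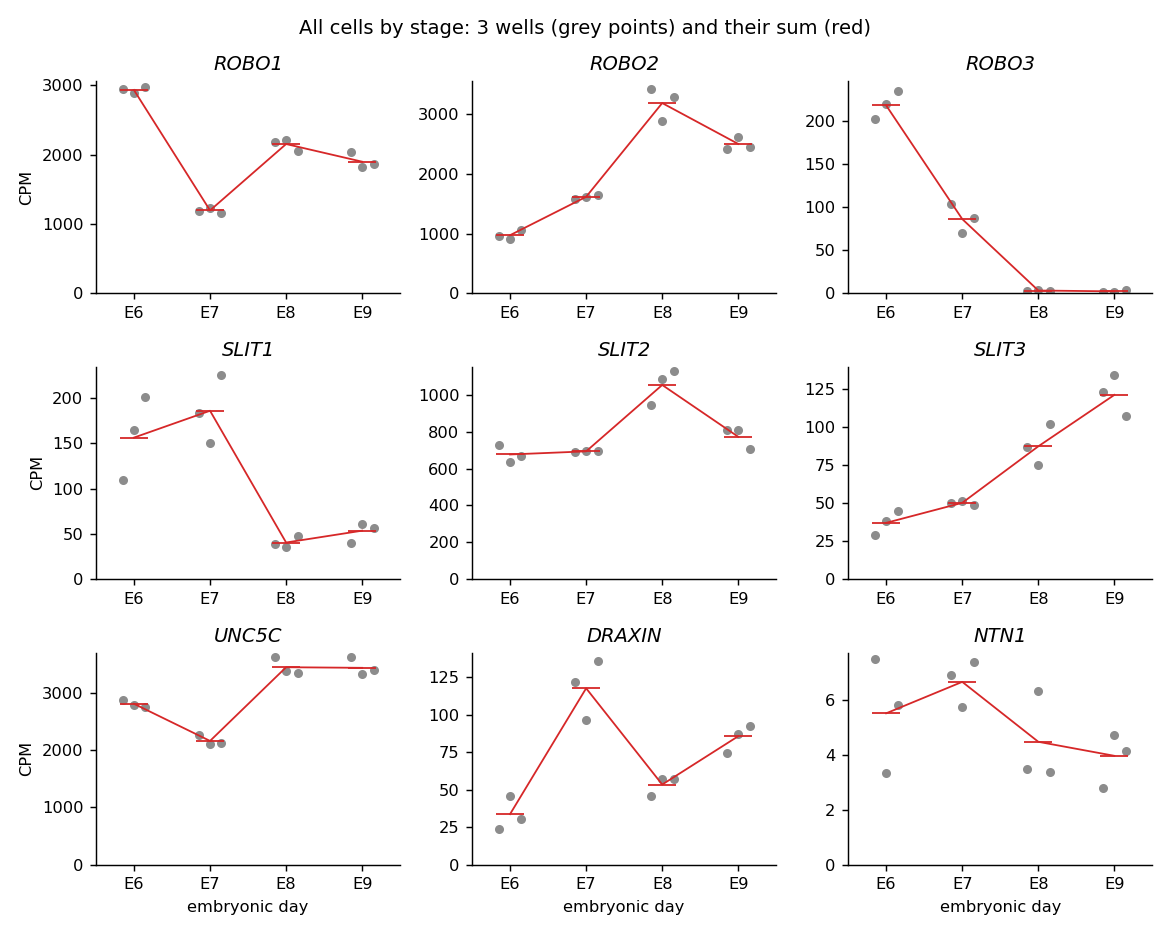
Levels of each gene in all cells by embryonic day; grey points are the 3 wells of a stage and the red marks and line their sum, in CPM on axes that start at 0. ROBO3 is at 2.23 CPM at E9 and 218 at E6, and ROBO2 at 2500.3 at E9 and 973 at E6; the wells of a stage lie close together beside these distances.

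Over the whole tissue, ROBO2, SLIT3 and DRAXIN were higher and ROBO3 and SLIT1 lower at E9 than at E6, of 8 genes with enough UMIs. ROBO3 had 202, 219.9 and 235 CPM in the E6 wells, 104, 70.1 and 87.6 in the E7 wells, 2.85, 3.58 and 3.07 in the E8 wells and 1.74, 1.39 and 3.36 in the E9 wells. All wells of E6 and E7 lay far above all wells of E8 and E9, and the E9 over E6 log2 ratio was -6.61 ± 0.02 (interval -7.28 to -6.03; 3.6% of all genes were called lower at E9). ROBO2 had 967, 907 and 1058 CPM in the E6 wells, 1582, 1618 and 1642 in the E7 wells, 3428, 2889 and 3279.6 in the E8 wells and 2424, 2621 and 2445 in the E9 wells, with no overlap between the wells of E6 and those of any later stage. Its E9 over E6 log2 ratio was 1.36 ± 0.26 (interval 1.33 to 1.397; 12.2% called higher). ROBO1 had 2942, 2887 and 2969.7 CPM in the E6 wells, 1188, 1235 and 1158 in the E7 wells, 2186, 2209 and 2054 in the E8 wells and 2039.8, 1815 and 1867 in the E9 wells. It was therefore highest at E6 and lowest at E7 in every well, but its E9 over E6 log2 ratio of -0.63 ± 0.16 was under 2-fold. SLIT1 held 156, 186, 40.4 and 53.5 CPM at E6, E7, E8 and E9, and no well of E6 or E7 overlapped one of E8 or E9 (-1.55 ± 0.02 at E9 over E6). SLIT3 was higher at each later stage, with no overlap between the wells of any pair of stages, at 36.98, 50.2, 87.4 and 121 CPM at E6, E7, E8 and E9 (1.71 ± 0.27). DRAXIN peaked at E7, at 33.7, 118, 53.4 and 85.6 CPM at E6, E7, E8 and E9 (1.34 ± 0.04). SLIT2 (677, 694, 1054 and 773 CPM at E6, E7, E8 and E9) and UNC5C (2806, 2159, 3443 and 3432 CPM at E6, E7, E8 and E9) stayed within 2-fold, and NTN1 was at 5.52, 6.66, 4.48 and 3.97 CPM at E6, E7, E8 and E9. The class makeup by the gates also differed between stages: Purkinje-like cells were 15.1, 25.8, 5.33 and 2.83% of cells at E6, E7, E8 and E9, and granule-lineage-like cells 0.201, 2.08, 4.399 and 9.51%. These are shares of cells that passed a gate. Clusters 22, 31 and 35, described below, are mostly from E8 and E9 and had the Purkinje genes as their best list. Of the 206 cells of cluster 22 at E8 and 121 at E9, 45 and 23 were Purkinje-like by the gate. How many Purkinje cells the gate missed at each stage was not tested. The values within classes follow; how much of the whole-tissue differences comes from class makeup was not tested.

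**Figure D3:**
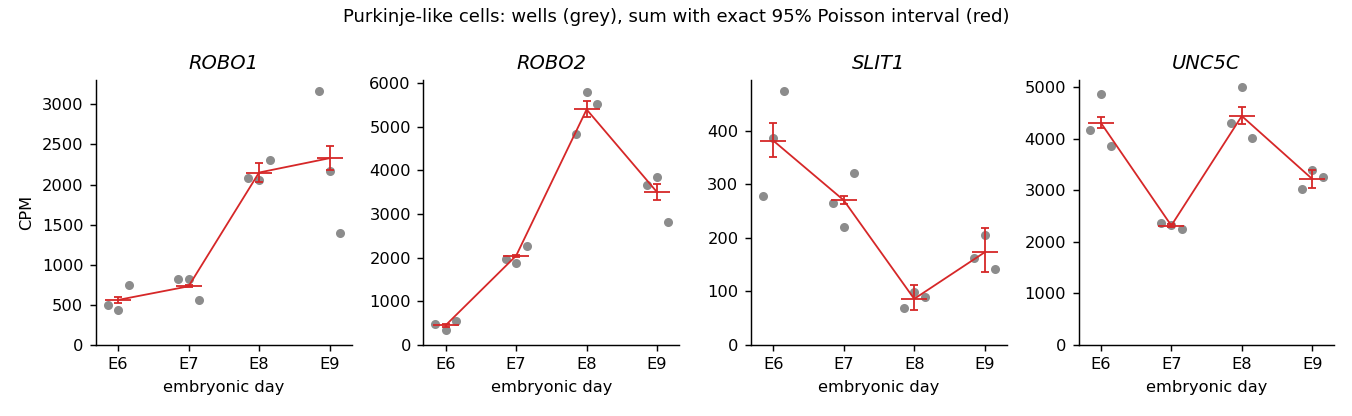
Levels of ROBO1, ROBO2, SLIT1 and UNC5C in Purkinje-like cells by embryonic day, in CPM; grey points are the 3 wells and red marks their sum with the exact 95% Poisson interval. ROBO1 stands at 2328 CPM at E9 and 559.9 at E6, and ROBO2 peaks at E8 at 5398 CPM.

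In Purkinje-like cells, which carry the output of the cerebellar cortex, ROBO1 and ROBO2 were higher at E9 than at E6, while ROBO3 and SLIT1 were lower. ROBO2 had 466, 336 and 546 CPM in the E6 wells, 1979, 1869.7 and 2263 in the E7 wells, 4833, 5806 and 5525 in the E8 wells and 3659, 3843 and 2808 in the E9 wells, each stage clear of E6 in every well. The E9 over E6 log2 ratio was 2.97 ± 0.09 (interval 2.83 to 3.098; 7.92% of genes were called higher). ROBO1 had 501, 433 and 747 CPM in the E6 wells, 819, 819 and 565 in the E7 wells, 2077, 2057 and 2305 in the E8 wells and 3170.4, 2172 and 1395 in the E9 wells. E6 and E7 overlapped, E8 and E9 did not overlap with them, and the E9 wells spread the most (log2 ratio 2.06 ± 0.14 at E9 over E6, interval 1.92 to 2.19). With the clusters named Purkinje-like in place of the gate the ROBO1 ratio was 4.303. That value sets mostly cluster 10 at E9 (84 cells) against cluster 2 at E6 (719 cells) and leaves out unnamed clusters such as 22. ROBO3 stood at 177, 78.2, 1.56 and 2.37 CPM at E6, E7, E8 and E9, the E8 and E9 values being 1 UMI each (log2 ratio -4.64 ± 0.78 with the E9 count set at a floor of 3 UMIs, counting interval -11.53 to -3.73; 12.1% called lower). SLIT1 held 382, 270.4, 85.9 and 173 CPM at E6, E7, E8 and E9 (-1.14 ± 0.06), with E9 wells of 163, 206 and 142 CPM and E6 wells of 279, 387 and 475 that did not overlap. Without well 3 of E6, or once the median log2 ratio of all genes, -0.23, was subtracted, the difference was under 2-fold. SLIT1 was above the other cells of the same stage also at the later stages, at 85.9 CPM against 37.3 at E8 and 173 against 48.4 at E9. UNC5C, at 4304, 2312, 4436 and 3215 CPM at E6, E7, E8 and E9, differed by less than 2-fold between E9 and E6 (-0.42 ± 0.10). SLIT3 stood at 8.502, 45.99, 89.03 and 116 CPM at E6, E7, E8 and E9, on 49 UMIs at E9 and 13 at E6, under the minimum for a call, and SLIT2 at 273, 432, 519 and 197 CPM at E6, E7, E8 and E9. The later stages hold few Purkinje-like cells, 132 at E8 and 73 at E9, and different clusters of cells hold most of them: cluster 2 held 86.2% of them at E6, cluster 4 22.5% at E7, and cluster 22 34.1% at E8 and 31.5% at E9. At E7 the unnamed clusters 8 and 0, with median depths of 12253 and 14215 UMIs, held another 12.96% and 12.5%. Over all stages these 2 clusters had 137 and 83.7 CPM of ROBO3. Clusters 2, 4, 10, 17 and 25, named Purkinje-like, had 110, 9.24, 9.25, 5.05 and 4.46 CPM. The part of this in the ROBO3 levels of the class was not tested.

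**Figure D4:**
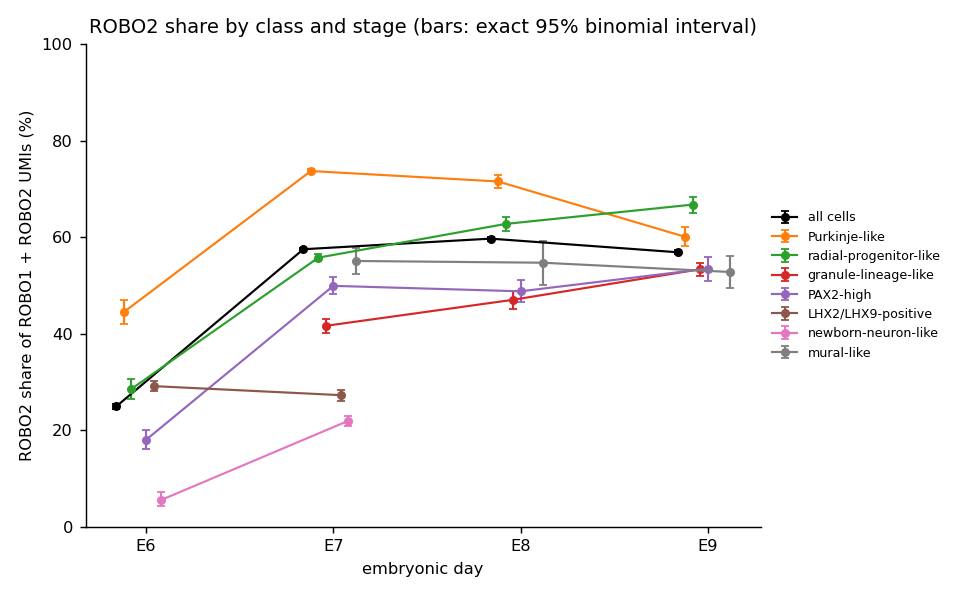
ROBO2 UMIs as a percent of ROBO1 and ROBO2 UMIs together, by embryonic day, for all cells and each class with at least 2 stages of 50 or more cells; bars are exact 95% binomial intervals. Newborn-neuron-like cells lie lowest at E6 (5.55%) and Purkinje-like cells highest from E6 to E8 (71.5% at E8).

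The balance of ROBO1 and ROBO2 was read as the ROBO2 share of their joint UMIs, a measure that does not depend on the scaling of the counts. In all cells the share was 24.9% at E6 (interval 24.5 to 25.4%), then 57.5%, 59.7% and 56.9% from E7 to E9 (56.4 to 57.3% at E9), so the step lay between E6 and E7. Purkinje-like cells stood at 44.5% (41.95 to 46.97%), 73.7%, 71.5% and 60.05% (58.1 to 61.99%) at the 4 stages. Radial-progenitor-like cells stood at 28.5% (26.5 to 30.6%), 55.7%, 62.7% and 66.7% (65.03 to 68.4%), and PAX2-high cells at 18.04%, 49.9%, 48.8% and 53.5%. The E6 share was the lowest of the 4 in each of these classes. LHX2/LHX9-positive cells did not follow: 27.3% at E7 (26.1 to 28.4%) and 29.1% at E6 (28.1 to 30.2%). Newborn-neuron-like cells had 21.95% at E7 (20.96 to 22.96%) and 5.55% at E6 (4.23 to 7.13%), the lowest share of any class shown at either stage. Granule-lineage-like cells had 41.6%, 47.01% and 53.4% from E7 to E9.

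Radial-progenitor-like cells, the ventricular zone stem and glial precursors, were higher in ROBO2 and lower in UNC5C at E9 than at E6. ROBO2 had 382, 347 and 359 CPM in the E6 wells, 662, 903 and 634 in the E7 wells, 1079.7, 1161 and 1504 in the E8 wells and 1137, 1491 and 1216 in the E9 wells, without overlap between E6 and the later stages (1.83 ± 0.14 at E9 over E6, interval 1.69 to 1.97; 7.52% of genes called higher). UNC5C had 1801, 1809 and 1648 CPM in the E9 wells, against 3523, 3985 and 3745 in those of E6 (-1.11 ± 0.03, interval -1.17 to -1.04; 4.41% called lower), with 2016 CPM at E7 and 2261 at E8. SLIT2 stood at 1403, 930.3, 1641 and 722 CPM at E6, E7, E8 and E9, just under 2-fold at E9 over E6 (-0.96 ± 0.20), and the E9 wells spread from 449 to 1042 CPM. Of these cells, 38.3% belonged to cluster 3 at E9 and 55.9% to cluster 13 at E6; with clusters in place of gates the ROBO2 log2 ratio was 1.01. Within cluster 3, UNC5C was at 1700.1 CPM at E7, 1655 at E8 and 1241 at E9, and ROBO2 at 590.5, 618 and 343. Both were lower at E9 than at E7 within it, which is the direction of the class for UNC5C but not for ROBO2. Cluster 3 holds 2 cells from E6, so it gives no E9 over E6 value. Dividing and non-dividing radial-progenitor-like cells (875 and 1601 cells, split by cell cycle genes) differed by less than 2-fold in 8 of the 9 genes. The exception was NTN1, at 3.12 CPM in dividing cells, against 10.7 in non-dividing cells, on 27 and 84 UMIs (log2 ratio -1.78 ± 0.39, interval -2.46 to -1.14; 0.462% of genes called lower). SLIT2, at 1041 CPM in dividing and 1038 in non-dividing cells, differed by less than the spread between sublibraries; none of the 9 was higher in dividing cells, where 2.4% of genes were. In granule-lineage-like cells none of the 7 genes with enough UMIs was called between 154 dividing and 364 non-dividing cells, where 5.57% of genes were higher and 5.21% lower; DRAXIN was at 327 CPM in dividing and 252 in non-dividing cells (log2 ratio 0.38 ± 0.10).

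PAX2-high cells, the class that includes GABAergic interneuron precursors, differed between E9 and E6 in 4 of the 5 genes with enough UMIs. ROBO1 had 1856, 1394 and 1604 CPM in the E9 wells, against 3607, 6288 and 6894 in those of E6 (-1.69 ± 0.21, interval -1.82 to -1.55; 8.24% of genes called lower). SLIT2 had 229, 169 and 184 CPM at E9, against 958, 1189.7 and 2261 at E6 (-2.79 ± 0.15). UNC5C had 2873, 2916 and 2652 CPM at E9, against 129, 954 and 1185 at E6 (2.17 ± 0.97; 12.9% called higher), and SLIT3 239 CPM at E9, against 36.4 at E6 on 9 UMIs (2.72 ± 0.15). The E9 and E6 wells did not overlap for ROBO1, SLIT2 or UNC5C. Of the 128 PAX2-high cells at E9, 65.6% belonged to cluster 16, named PAX2-high, while of the 55 at E6 34.5% belonged to cluster 23 and 23.6% to cluster 6, clusters named LHX2/LHX9-positive and newborn-neuron-like. Cluster 16 held no E6 cells, and within it ROBO1 was at 873 CPM at E7, 1610.5 at E8 and 1177 at E9. SLIT2 stepped down in the same cluster, at 648, 397 and 220.1 CPM, and ROBO3 was at 349 CPM at E7 with 2 UMIs at E8 and none at E9. The part of the cluster makeup in the E9 over E6 values was not tested.

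Granule-lineage-like cells reached 50 in number from E7, and their UNC5C was at 4053 CPM at E7, 7094 at E8 and 6574 at E9, above the other cells of each stage (2124, 3255 and 3082 CPM). Their DRAXIN was at 416, 132 and 176 CPM at E7, E8 and E9, against 112, 49.4 and 75.6 in the other cells. SLIT2 stood at 1503, 1910.0 and 1376 CPM, and ROBO2 at 1421, 2683 and 2619. At E9 over E7, SLIT1 was lower, at 9.66 CPM at E9 against 106 at E7 (log2 ratio -3.46 ± 0.08), and so was DRAXIN (-1.24 ± 0.01), where 6.43% of genes were called lower. At E9, 28.6% of these cells belonged to cluster 19 and 21.6% to cluster 24, with 3.53 and 12.7 CPM of SLIT1, while at E7 the largest share, 22.01%, belonged to cluster 9, named late-glutamatergic-like, with 189 CPM of SLIT1; the part of this in the values was not tested. SLIT3 was higher, at 89.8 CPM at E9 against 33.1 at E7 (1.44 ± 0.97; 3.02% called higher), but 0.79 in sublibrary 1 alone. The early classes are described at E6 and E7, where they held 50 or more cells. LHX2/LHX9-positive cells had 5090.4 CPM of ROBO1 at E7, against 7999 at E6, and 72.98 CPM of ROBO3 at E7, against 391 at E6, so that at E7 their ROBO3 no longer exceeded the other cells (86.3 CPM). The class sat in different clusters at these stages: 30.2% of it in cluster 28, 29.2% in cluster 32 and 15.6% in cluster 23 at E7, against 56.5% in cluster 23 and 38.5% in cluster 28 at E6, and ROBO3 was at 87.7, 21.9 and 493 CPM in clusters 28, 32 and 23; the part of this in the E7 and E6 values was not tested. Newborn-neuron-like cells had 341 CPM of ROBO3 at E7, against 867 at E6, and 606 of DRAXIN at E7, against 219 at E6, above the other cells of both stages.

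**Figure D5:**
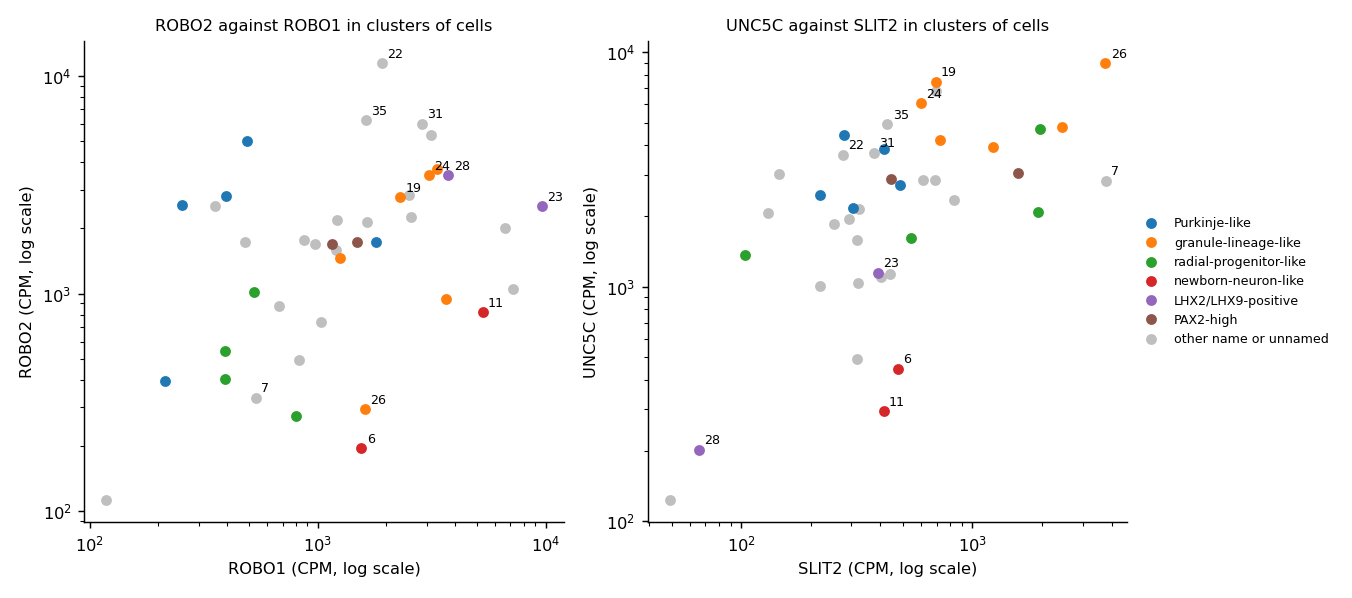
Each point is 1 cluster of 50 or more cells: ROBO2 against ROBO1 (left) and UNC5C against SLIT2 (right), in CPM on log axes, coloured by the class whose markers name the cluster. Cluster 22 has the highest ROBO2 (11399.9 CPM) and cluster 26 the highest UNC5C (8957 CPM).

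The classes were not uniform. Clustering the cells without the 9 genes gave 43 clusters, of which 31 could be named from the gate genes, and clusters of the same name differed in the 9 genes. ROBO2 was highest in cluster 22, at 11399.9 CPM (interval 11215 to 11587), against a median of 1725 CPM over the 41 clusters of 50 or more cells. Cluster 22 holds 331 cells, 206 from E8, 121 from E9 and 4 from E7, and is unnamed: the Purkinje genes were its best list but only 0.50 (log2) above all cells. Clusters 35 and 31, also unnamed and mostly from E8 and E9, followed at 6262 and 6004 CPM. Among the clusters named Purkinje-like, ROBO2 ran from 396 CPM in cluster 2, whose 723 cells are nearly all from E6, to 5007 in cluster 17, with 1725, 2539.5 and 2795 CPM in clusters 10, 4 and 25. Clusters 4, 10, 17 and 25 each hold more cells from E7 than from any other stage. ROBO1 in the same clusters was at 213 CPM in cluster 2, 253 in 4, 397 in 25, 489 in 17 and 1807 in 10. Within cluster 10, ROBO1 was at 778 CPM at E7, 4187 at E8 and 4451 at E9, and SLIT1 at 449, 124 and 143 CPM.

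The 6 granule-lineage-like clusters differed in ROBO2 and SLIT2. Cluster 26 (288 cells, led by genes that include MMEL1, COL9A1 and EPHA8) had 294 CPM of ROBO2, 3761 of SLIT2 and 8957 of UNC5C. Cluster 19 (362 cells, led by genes that include EPHA8, FAT2 and GFRA2) had 2759 CPM of ROBO2, 694 of SLIT2 and 7479.6 of UNC5C, and cluster 24 (298 cells) 3489.8, 598 and 6058 CPM. These 3 clusters are mostly from E8 and E9, and the cluster with the lowest ROBO2 had the highest SLIT2. Cluster 12 (407 cells) had 3733 CPM of ROBO2 and 725 of SLIT2, near cluster 24, and cluster 39 (77 cells) lay between, at 1449 and 1229 CPM. Cluster 27, which spans E7 to E9, stayed on the side of cluster 26 at every stage: SLIT2 was at 1845, 3169 and 2743 CPM and ROBO2 at 1109, 1112 and 504. The 2 newborn-neuron-like clusters differed as well. Cluster 6 (553 cells) held 1076 CPM of ROBO3, 1552 of ROBO1, 195 of ROBO2 and 330.5 of DRAXIN, and cluster 11 (451 cells, led by genes that include NEUROD4, DRGX and PRDM13) 84.5, 5281, 822 and 856 CPM of the same genes. The LHX2/LHX9-positive cells split into cluster 23, with 9617 CPM of ROBO1, 493 of ROBO3 and 389 of SLIT2, and cluster 28, with 3734, 87.7 and 65.5 CPM, with LHX9 among the leading genes of both. At E7, 29.2% of them belonged to a further, unnamed cluster, 32, with 7208, 21.9 and 318 CPM of the same genes. NTN1 was highest in cluster 29 (208 cells, all but 1 from E6 and E7, LMX1B among its leading genes), at 57.8 CPM (interval 44.8 to 73.4), and in cluster 30 (200 radial-progenitor-like cells of all stages, SALL3 among their leading genes), at 49.7 CPM (38.98 to 62.5), against a median of 3.85 CPM over clusters. SLIT1 was highest in cluster 21, which SOX14 leads, at 589 CPM (557 to 622), and SLIT3 was highest there too, at 269.9 CPM (248 to 293). SLIT2 was highest in cluster 7, an unnamed cluster whose best list was the roof plate genes, at 3772 CPM (3697 to 3848), next to cluster 26. Cluster 41 (44 cells), which is named roof-plate-like, held only 749 CPM of SLIT2 (651 to 856). Of the 81 roof-plate-like cells by the gate, 14 belonged to cluster 41. At E7, 29.5% of the gated cells belonged to the unnamed cluster 0 and 24.6% to cluster 7. The part of this in the SLIT2 level of the roof-plate-like class was not tested.

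NR2F2, a nuclear receptor, and the cadherins CDH6 and PCDH10 are known from subsets of Purkinje cells, and Purkinje-like cells were split by a UMI of each gene within a stage. At E7 the positive cells had more UMIs than the negative ones, with medians of 8411 and 5928 for NR2F2. NR2F2-positive cells were also deeper at the later stages, with medians of 4754.5 against 4219.5 at E8 and 5307 against 4807.5 at E9. For CDH6 the medians were 4319.5 in positive and 4316.5 in negative cells at E8 and 4821.5 and 5139 at E9. The negative set can also hold cells that express the gene but gave no UMI. ROBO2 at E8 was at 9831 CPM in NR2F2-positive cells, against 3755 in NR2F2-negative cells (34 and 98 cells; log2 ratio 1.39, interval 1.29 to 1.49; 1.68% of genes were called higher). At E9 it was at 5035 CPM in NR2F2-positive cells, against 2221 in NR2F2-negative cells (31 and 42 cells; log2 ratio 1.18, interval 1.02 to 1.34; 3.5% called higher). At E7, with 661 and 1314 cells, there was no such difference: 1972 CPM in NR2F2-positive cells, against 2108 in NR2F2-negative cells (log2 ratio -0.10). ROBO1 at E9 was at 3678 CPM in CDH6-positive cells, against 895 in CDH6-negative cells (36 and 37 cells; log2 ratio 2.04 ± 1.07; 3.08% called higher), and at E7 at 836 CPM in CDH6-positive cells, against 595 in CDH6-negative cells (log2 ratio 0.49). SLIT2 at E8 was at 305 CPM in CDH6-positive cells, against 726 in CDH6-negative cells (log2 ratio -1.25, interval -1.61 to -0.90; 1.06% called lower), and ROBO3 at E6 at 106 CPM in CDH6-positive cells, against 223 in CDH6-negative cells (log2 ratio -1.07 ± 1.41; 0.561% called lower), a difference smaller than the spread between sublibraries. For PCDH10 the only call was NTN1 at E7, at 8.63 CPM in PCDH10-positive cells, against 3.77 in PCDH10-negative cells (82 and 40 UMIs; log2 ratio 1.19 ± 2.05; 0.601% called higher), which was also smaller than that spread and was -0.43 in sublibrary 2 alone. These are 4 higher and 2 lower values of 51 gene, marker and stage combinations, and with a minimum of 2 UMIs of the marker the sets at E8 and E9 behind the ROBO1 and ROBO2 values were too small to give one. In the directions with no call, all genes were called at 0.872% (higher) and 0.107% (lower) for NR2F2 at E7, 1.68% at E8 and 1.26% at E9 (both lower); at 1.2% (higher) for CDH6 at E6, 0.679% and 0.126% at E7, 1.51% (higher) at E8 and 2.94% (lower) at E9; and at 0.213% (lower) for PCDH10 at E7 and 1.15% and 1.86% at E8.

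Other genes of the pathways were read from a list of 45 receptors, ligands and intracellular effectors, of which 42 were found in the table. Over the 13 classes, 43 of 546 gene and class pairs were higher than in the other cells and 81 were lower, beside 8.29% and 11.2% of the pairs of all genes. In newborn-neuron-like cells 4 of the 42 were higher and 5 lower, where 3.25% of all genes were higher and 13.6% lower, with a median log2 ratio of -0.03 beside -0.11 for all genes; NELL2, a secreted ligand of ROBO3 in mammals, was among them at 516 CPM against 211 in the other cells (log2 ratio 1.29). NEO1, a receptor related to DCC that binds netrin and RGM proteins, was higher in the same class, at 2191 CPM against 933 (1.23), and in roof-plate-like cells, at 2642 CPM against 944 (1.48), and granule-lineage-like cells, at 1881 CPM against 933 (1.01). Roof-plate-like cells had 3 of 42 higher and 5 lower (9.21% and 4.9% of all genes). Granule-lineage-like cells had 2 higher and 8 lower (5.81% and 11.5%). In Purkinje-like cells none of the 42 was higher and 3 were lower (1.6% and 16.2% of all genes; median -0.06 beside -0.15), led by DOCK1, which activates the GTPase RAC1, at 69.1 CPM against 315 (-2.19). DOCK1 was higher in radial-progenitor-like cells, at 626 CPM against 188 (1.73), as were the netrin relatives NTN4 (2.18) and NTN3 (1.24), while DSCAM, a netrin receptor, was lower (-2.0997); in all, 3 of 42 were higher, where 10.5% of all genes were, and 8 lower, where 12.5% were (median -0.37 beside 0.07). In LHX2/LHX9-positive cells DSCAM was higher, at 1158 CPM against 315 (1.88), and so was NTNG2, a membrane-anchored netrin relative (2.85). DOCK1 (-1.67), NTN3 (-1.59) and UNC5B (-1.56) were lower there. In that class 3 of 42 were higher and 3 lower (4.03% and 9.67% of all genes, median 0.15 beside -0.02).

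At E9 over E6, 3 of 38 list genes were higher and 3 lower in all cells, where 12.2% of all genes were higher and 3.6% lower (median -0.06 beside 0.05 for all genes). UNC5B, a relative of UNC5C, was at 30.5 CPM at E9, against 6.49 at E6 (log2 ratio 2.23), and RGMB, a ligand of NEO1, at 26.5 CPM at E9, against 154 at E6 (-2.54). In Purkinje-like cells 1 of 31 was higher and 6 were lower (7.92% and 12.1% of all genes; median -0.29 beside -0.23): UNC5D was at 692 CPM at E9, against 167 at E6 (2.05), and RGMB at 35.6 CPM, against 298 (-3.06). UNC5D was also higher in PAX2-high cells, at 281 CPM at E9, against 64.7 at E6 (2.12), where 2 of 21 were higher and 1 lower (12.9% and 8.24% of all genes; median 0.06 beside 0.01). Radial-progenitor-like cells had 1 of 31 higher and 2 lower (7.52% and 4.41% of all genes; median -0.08 beside -0.04), the lower ones including SRGAP3, which acts downstream of ROBO, at 197 CPM at E9, against 473 at E6 (-1.26).

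The genes whose patterns were most like those of the 9 were named from 10924 genes by the Pearson correlation of log2(CPM + 5) over 25 class and stage groups of 50 or more cells, as a description. For ROBO1 the most alike named genes were SYP, a synaptic vesicle protein (0.89), and KALRN (0.83). For ROBO2 they included CCDC85A (0.88) and LRRTM4 (0.87). ROBO3 was most like MTCL1 (0.90) and FIGNL2 (0.89), SLIT1 most like RAB11FIP5 (0.89), ASTN1 (0.88) and SEMA3F (0.88), and SLIT2 most like MYB (0.92). UNC5C was nearest to BCAT1 (0.80), DRAXIN to KIF25 (0.84), SLIT3 to RET (0.69) and NTN1 to HACE1 (0.73). The groups share libraries and pools, and groups of the same class are not independent.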

How the data were processed

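Cells of 4 stages were read in 2 sublibraries, and the authors deposited 1 table of raw UMI counts for 15190 cells and 30108 genes, with each cell's stage and barcoding well. The submitters' processing notes list Cell Ranger, Seurat and the assembly GRCg7b with no role or order; aligner, cell calling and doublet removal were not given in the sources used here. Deposited counts of each cell summed to the deposited UMI total of that cell in 100% of cells. Sublibrary 1 held 6962 kept cells and 49994439 UMIs and sublibrary 2 held 8227 cells and 51260351 UMIs; 896 barcodes occur in both and were kept as separate cells.

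Cells with 500 or more UMIs and 300 or more genes were kept, which left out 1 cell. Classes were rebuilt from marker UMIs and may differ from those of the study. No doublet caller was run; cells passing several gates were left out of the classes. UMIs were summed over cells and divided by the sum over all genes to give CPM. Intervals are exact at 95% (Poisson for levels, a binomial split for ratios, Clopper-Pearson for shares) and cover counting error only. A level below 3 UMIs was set to 3 in a ratio. Wells and sublibraries divide the same pools, so they give no replication between animals. Shares of cells were taken after thinning each cell to 1000 UMIs, leaving out shallower cells. Clusters (Leiden, resolution 1.5, on 30 components of 2000 variable genes less the 9 genes, 15 neighbours) were named from the gate genes. The ratio calculation was run on Poisson counts drawn with known folds. These counts hold no spread between cells, wells or sublibraries, so the run checks the calculation only. The work used Python 3.11.15 with scipy 1.17.1, igraph 0.11.9, numpy 2.4.6, matplotlib 3.10.9, pandas 2.3.3 and scikit-learn 1.9.0.

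The 10 gene names, the list of 45 pathway genes and the marker lists were chosen with earlier results of these data known. Of the list, the genes named were among the 3 highest and 3 lowest past 2-fold with 100 or more UMIs in a comparison, and for likeness among the 3 highest correlations of genes with 500 or more UMIs. Gene positions were matched by name in the RefSeq table of GRCg7b, which gave 9 of the 10. Alternatives tried were each sublibrary alone, clusters, stricter gates, cells of 2000 or more UMIs, other scalings, other minimum counts, 1.5-fold, each stage alone, each well left out and other thinning depths.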

Additional observations from a re-analysis of the deposited data

Results flagged for a closer look

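ROBO1 moved in opposite directions between E9 and E6 in a pair of classes. In Purkinje-like cells the E9 over E6 log2 ratio was 2.06 and in PAX2-high cells -1.69, and every E9 well lay above every E6 well in Purkinje-like cells and below every E6 well in PAX2-high cells. The difference between the classes was not tested, since each stage is 1 pool. At E6, 34.5% of the 55 PAX2-high cells belonged to cluster 23, where ROBO1 was at 9617 CPM; the part of this in the ratio was not tested.

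UNC5C did the same in another pair. Its E9 over E6 log2 ratio was 2.17 in PAX2-high cells and -1.11 in radial-progenitor-like cells, again with no overlap between the wells of E9 and E6 in either class, and this difference was not tested. The E6 wells of PAX2-high cells spread from 129 to 1185 CPM of UNC5C.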

How the results depend on the processing

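Of 70 called values of the 9 genes, 39 stayed past 2-fold in every setting that gave a value, 29 were under it in at least 1 setting and 6 turned sign in at least 1; the causes were not tested. The values that turned sign are ROBO1 in Purkinje-like over other cells at E9 alone (log2 ratio 0.31), ROBO3 in radial-progenitor-like cells at E8 alone (0.18) and E9 alone (0.97), ROBO3 in LHX2/LHX9-positive cells at E7 alone (-0.24), ROBO3 in SOX14-positive cells when taken as clusters (0.66), NTN1 in endothelium-like cells among cells with fewer than 10000 UMIs (0.0113), and NTN1 in PCDH10-positive over PCDH10-negative Purkinje-like cells at E7 without sublibrary 1 (-0.43, against 2.47 without sublibrary 2) and under 10000 UMIs (-1.91). The limit of 10000 UMIs was chosen after seeing the data, because 2201 cells lie above it and 88.4% of them are from E7.

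Over all stages 14 of 117 gene and class pairs were higher and 35 lower. At E6 alone 7 and 16 of 40 were, at E7 alone 11 and 17 of 90, at E8 alone 3 and 14 of 35 and at E9 alone 5 and 15 of 35. Fewer classes reach 50 cells at a single stage. The Purkinje-like subsets gave 4 higher and 2 lower of 51 values. A gate of 2 UMIs gave 0 higher of 37, and cells under 10000 UMIs gave 8 lower of 54. Leaving out sublibrary 1 gave 1 lower of 57, and leaving out sublibrary 2 gave 3 of 54. For the pathway list, 1.5-fold gave 81 higher and 128 lower of 546 class pairs, against 43 and 81 at 2-fold. It gave 16 higher and 28 lower of 121 E9 over E6 values, against 7 and 12. A minimum of 20 UMIs per gene gave 20 lower of 147. The share of all genes was not taken at these settings. No paired analysis was possible because each stage is 1 pool and the sublibraries split the same cells. NTN1 and ROBO3 after E7 are limited by few UMIs.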
